A study of Mus musculus with 23 samples.

Results

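The genes described here carry the signal of interleukin 7 (IL-7), the growth factor of early B cells, and were followed through B cell leukemia that arose in irradiated mice. Il7r and Il2rg encode the receptor chains, Jak1 and Jak3 the kinases bound to them, and Stat5a, Stat5b and Stat3 the transcription factors that the kinases activate. The 7 genes were listed by name, by no threshold on their values, and each was read from the probe set that carried its symbol alone, taking the one of highest mean where there were several. Of the 7, 5 had such a probe set, among 19938 symbols in all. Jak3 stood only on a probe set shared with Insl3, and the probe annotation held no entry for Il2rg, so neither was analysed here. All 5 measured genes were above the array median in every one of the 23 samples and passed the filter on low values.

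The samples were leukemic marrow of 10 Pax5+/- mice (samples 1 to 10), pro-B and pre-B cells of 7 Pax5+/- mice before leukemia (samples 11 to 13 and 21 to 24), leukemic marrow of 3 wild-type (WT) mice (samples 14, 15 and 17) and pro-B and pre-B cells of 3 WT mice before leukemia (samples 18 to 20). Pax5+/- mice carry 1 working copy of Pax5, which holds cells in the B lineage. Every mouse, WT included, had received a single dose of 2 Gy at an age of 2 months, and the preleukemic cells were taken 3 weeks later. Titles name the leukemias pro-B cells while descriptions name leukemic marrow, no sort is given for them, and the time at which leukemia was sampled is not labelled. Stage, B cell maturity, age and time after the dose therefore cannot be told apart. Strain and the make-up of the Pax5 allele are not stated in the labels.

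All 9 measured markers of B cell precursors lay above the array median in 22 samples, and 8 of 9 did in WT leukemia 15. By limma 7 of these 9 fell in Pax5+/- leukemia (median -1.33) and 8 of 9 in WT leukemia (median -1.82), so B cell markers moved with every stage comparison given here. Their part in the stage changes was not tested. Of all genes, 28.0% rose and 36.5% fell in Pax5+/- leukemia, and 17.9% rose and 19.3% fell in WT leukemia. Some other lists rose. Megakaryocyte markers rose for 5 of 5 in each genotype (medians 2.92 in Pax5+/- and 2.93 in WT mice). Neutrophil markers rose for 10 of 14 in Pax5+/- (median 1.78) and 1 of 14 in WT mice (median 2.05, with 3 samples per group). Monocyte and macrophage markers rose for 10 of 13 in Pax5+/- leukemia (median 1.66) and 7 of 13 in WT leukemia (median 1.98). Stroma and endothelium markers rose for 8 of 10 and 7 of 10, with 1 of 10 lower in each. NK and innate lymphoid markers rose for 1 of 10 in Pax5+/- leukemia (median -0.02) and for 0 of 10 in WT leukemia (median -0.57, 1 at an unadjusted p of 0.05). Erythroid markers rose for 1 of 5 and 4 of 5. The mean of the 14 neutrophil markers ran from 6.0 to 10.7 on the log2 scale in Pax5+/- leukemias, against 5.98 to 6.56 in Pax5+/- preleukemic cells. In WT mice it ran from 9.05 to 9.96 in leukemias, against 6.26 to 10.4 in preleukemic cells, where sample 20 held the top value. In marrow, fewer cells of a type and less RNA per cell cannot be told apart. In WT mice sex and stage coincided: Xist exceeded the Y-linked Eif2s3y in all 3 leukemias and in 0 of the 3 samples before leukemia. The split was 5 of 10 in Pax5+/- leukemias and 3 of 7 in Pax5+/- preleukemic cells.

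IL-7 binds Il7r paired with the common gamma chain Il2rg, which brings Jak1 and Jak3 together. The kinases phosphorylate STAT5, which enters the nucleus and switches on survival genes and also its own inhibitors, among them Cish and Socs2. In mice this pathway is needed for pro-B cells to form and divide, and mutations that keep it active are known from acute lymphoblastic leukemia. Arrays measure RNA, so neither phosphorylation nor mutations are seen in these values.

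STAT5 binds sites of the form TTCNNNGAA, which read the same on both strands. Promoter windows of the listed genes were searched for these letters, from 250 bases before to 50 after each start, in RefSeq sequence of build GRCm38.p6; the build behind the array is not given in the sources used here. All 7 genes matched, with 9 windows, because Stat5a and Stat5b have 2 starts each. Only the Il7r window held the motif, 142 bases before the start, while 8.3% of all 32851 windows held it. The windows of the receptor, of the kinase that stood apart in 1 leukemia and of the first starts of the STAT5 pair, which moved together in 3 leukemias, follow, with the motif in capitals.
Il7r, chr15:9529827-9530126, minus strand: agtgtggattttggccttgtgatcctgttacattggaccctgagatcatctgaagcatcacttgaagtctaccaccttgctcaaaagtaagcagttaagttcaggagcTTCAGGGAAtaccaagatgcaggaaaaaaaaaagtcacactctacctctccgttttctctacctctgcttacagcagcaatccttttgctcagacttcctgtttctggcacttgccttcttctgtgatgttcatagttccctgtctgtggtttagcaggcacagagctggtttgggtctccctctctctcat
Jak1, chr4:101265174-101265473, minus strand: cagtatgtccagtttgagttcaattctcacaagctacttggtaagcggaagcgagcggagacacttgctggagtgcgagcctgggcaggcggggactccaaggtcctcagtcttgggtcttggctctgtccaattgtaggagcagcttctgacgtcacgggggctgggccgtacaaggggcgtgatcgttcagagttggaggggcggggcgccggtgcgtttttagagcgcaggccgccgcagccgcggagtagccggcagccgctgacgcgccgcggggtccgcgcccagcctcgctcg
Stat5a, chr11:100859406-100859705, plus strand: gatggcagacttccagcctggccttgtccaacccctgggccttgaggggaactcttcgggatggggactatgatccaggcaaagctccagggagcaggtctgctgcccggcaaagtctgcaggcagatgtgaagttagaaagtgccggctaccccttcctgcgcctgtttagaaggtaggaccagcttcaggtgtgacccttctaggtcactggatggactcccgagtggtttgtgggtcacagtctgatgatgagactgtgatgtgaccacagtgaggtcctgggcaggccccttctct
Stat5b, chr11:100850532-100850831, minus strand: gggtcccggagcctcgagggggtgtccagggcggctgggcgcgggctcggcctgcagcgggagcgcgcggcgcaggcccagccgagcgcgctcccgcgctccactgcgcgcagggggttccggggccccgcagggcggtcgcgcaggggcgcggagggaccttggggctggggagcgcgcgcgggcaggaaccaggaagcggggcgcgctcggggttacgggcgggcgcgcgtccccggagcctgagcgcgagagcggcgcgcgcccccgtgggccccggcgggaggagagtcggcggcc
A match is a description of the letters and not a binding site, and no match says only that these letters are not in that window. The windows of the first starts of Stat5a and Stat5b held 57.7% and 82.7% of G and C. Those of the second starts went the other way, with 67.7% for Stat5a and 47.3% for Stat5b.

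Il7r RNA was high in both stages and in both genotypes. In Pax5+/- leukemias its log2 level ran from 11.67 in sample 2 through a median of 12.38 to 12.65 in sample 3. In Pax5+/- preleukemic cells it ran from 12.35 through a median of 12.54 to 12.75. The ranges overlapped, and 5 of 10 leukemias lay below every Pax5+/- preleukemic sample. The difference of -0.23 (SE 0.16, n = 10 and n = 7) did not pass, with a limma adjusted p of 0.202 and an exact two-sided permutation p of 0.0503. WT leukemias held 12.13, 11.20 and 12.80, against 12.36, 11.99 and 11.95 in WT preleukemic cells. WT leukemia 15 was thus the lowest of all 23 samples for Il7r and WT leukemia 17 the highest, and the WT difference of -0.06 (SE 0.26, limma adjusted p = 0.88) was smaller than either group's spread. By group mean the order was Pax5+/- preleukemic (12.54 ± 0.13), Pax5+/- leukemic (12.31 ± 0.28), WT preleukemic (12.10 ± 0.23) and WT leukemic (12.04 ± 0.80, all SD), with neighbours in this order within the larger of their SDs.

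**Figure D1:**
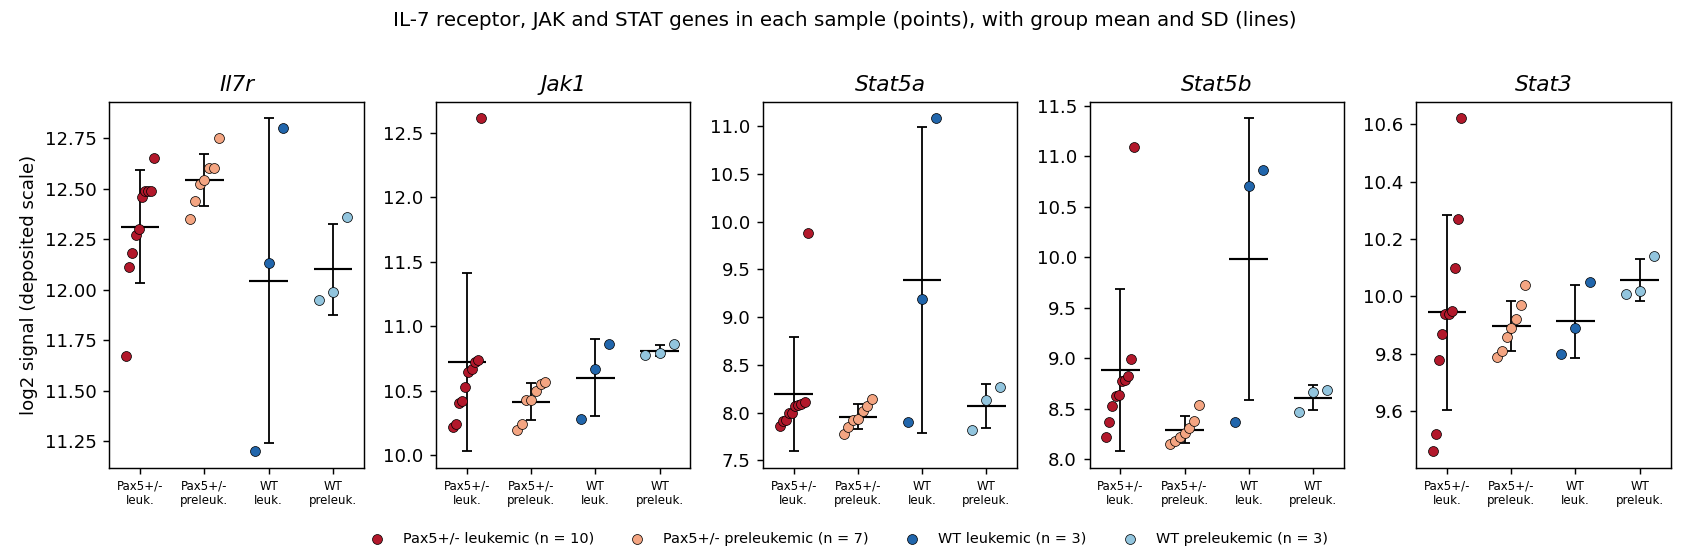
Log2 signal of Il7r, Jak1, Stat5a, Stat5b and Stat3 (vertical axes, each with its own scale) in the 4 groups; points are samples, long lines are means and bars are SDs. Single leukemias stand far above their groups, at 12.61 for Jak1 and at 9.88 and 11.09 for Stat5a and Stat5b among Pax5+/- leukemias.

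Jak1, the kinase bound to Il7r, was level in most leukemias and far higher in 1 of them. In Pax5+/- leukemias its log2 level was 10.53, 10.72, 10.65, 12.61, 10.42, 10.74, 10.67, 10.24, 10.22 and 10.41 in samples 1 to 10. Sample 4 exceeded the next leukemia by 1.87, or 3.66-fold. Of 15542 genes, 101 (0.65%) had a gap as large between their highest and second Pax5+/- leukemia. Pax5+/- preleukemic cells ran from 10.20 through a median of 10.43 to 10.57, so 5 of 10 leukemias lay above all of them and the ranges overlapped. The mean difference of 0.30 (SE 0.23, n = 10 and n = 7, limma adjusted p = 0.246) did not pass, and it was 0.09 without sample 4. WT leukemias held 10.28, 10.67 and 10.86, against 10.79, 10.86 and 10.78 in WT preleukemic cells, a difference of -0.21 (SE 0.38, limma adjusted p = 0.683). By group mean the order was WT preleukemic (10.81), Pax5+/- leukemic (10.72), WT leukemic (10.60) and Pax5+/- preleukemic (10.42), with neighbours in this order within the larger of their SDs.

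Before leukemia, Jak1 was lower in all 7 Pax5+/- samples than in any of the 3 WT samples. Its mean was 10.42 ± 0.15 in Pax5+/- preleukemic cells and 10.81 ± 0.04 in WT preleukemic cells (SD, n = 7 and n = 3), 1.31-fold lower in Pax5+/-. The exact two-sided permutation p was 0.00833, which is the lowest possible with 7 and 3 samples, and it was 0.0119 to 0.0278 when each sample was left out. Of all genes, 5.19% had ranges that did not overlap in this comparison. In the limma fit, whose spread is shared with the leukemias, the adjusted p was 0.827 (SE 0.32), and with the preleukemic groups alone it was 0.0533 (SE 0.09). WT preleukemic sample 20, with its neutrophil markers, held 10.78, next to 10.79 and 10.86 in samples 18 and 19. The difference was -0.30 with Xist as a covariate.

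Stat5a and Stat5b lie side by side on chromosome 11 and encode near-identical factors; whether the probes of one also catch RNA of the other is not known. Both were high together in 3 leukemias. In Pax5+/- leukemias Stat5b was 8.82, 8.22, 8.37, 8.78, 8.53, 11.09, 8.63, 8.64, 8.77 and 8.99 in samples 1 to 10, and Stat5a was 8.08, 8.00, 7.91, 8.00, 8.07, 9.88, 8.11, 7.92, 8.09 and 7.86. Sample 6 exceeded the next leukemia 4.29-fold for Stat5b and 3.41-fold for Stat5a, gaps matched by 0.45% and 0.708% of all genes. WT leukemias held 10.71, 10.86 and 8.37 of Stat5b, against 8.47, 8.67 and 8.69 in WT preleukemic cells. For Stat5a they held 9.19, 11.08 and 7.90, against 7.82, 8.27 and 8.13. WT leukemias 14 and 15 were thus high in both genes, while WT leukemia 17 lay at or below the level before leukemia.

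The balance of the pair differed between these leukemias. Relative to the median of the 10 leukemias without the rise, Stat5b was higher by 2.46 in Pax5+/- leukemia 6, 2.08 in WT leukemia 14 and 2.23 in WT leukemia 15. Stat5a was higher by 1.88, 1.19 and 3.08 in the same samples, so Stat5b had the greater rise in leukemias 6 and 14 and Stat5a in leukemia 15. The 9 other measured genes nearest to the pair in GRCm38.p6 order, chosen by position after the levels had been seen, showed no rise of that size. Among them Hspb9, Kcnh4, Hcrt, Ghdc and Cavin1 had medians of 5.97 to 6.565 in the 10 leukemias without the rise. These lie near the array medians of 6.06 to 6.2, where a rise may not show. In leukemia 6 they differed from that median by -0.19 to 0.76 and all 9 lay within the range of the other leukemias. In WT leukemia 14 they differed by -0.32 to 0.02, with 2 of 9 outside the range, and in WT leukemia 15 by -0.05 to 0.22, with 1 of 9 outside it. Stat3, which follows Stat5a in that order, was 10.27, 9.89 and 10.05 in these samples, inside the range of 9.46 to 10.62 of the other leukemias.

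**Figure D2:**
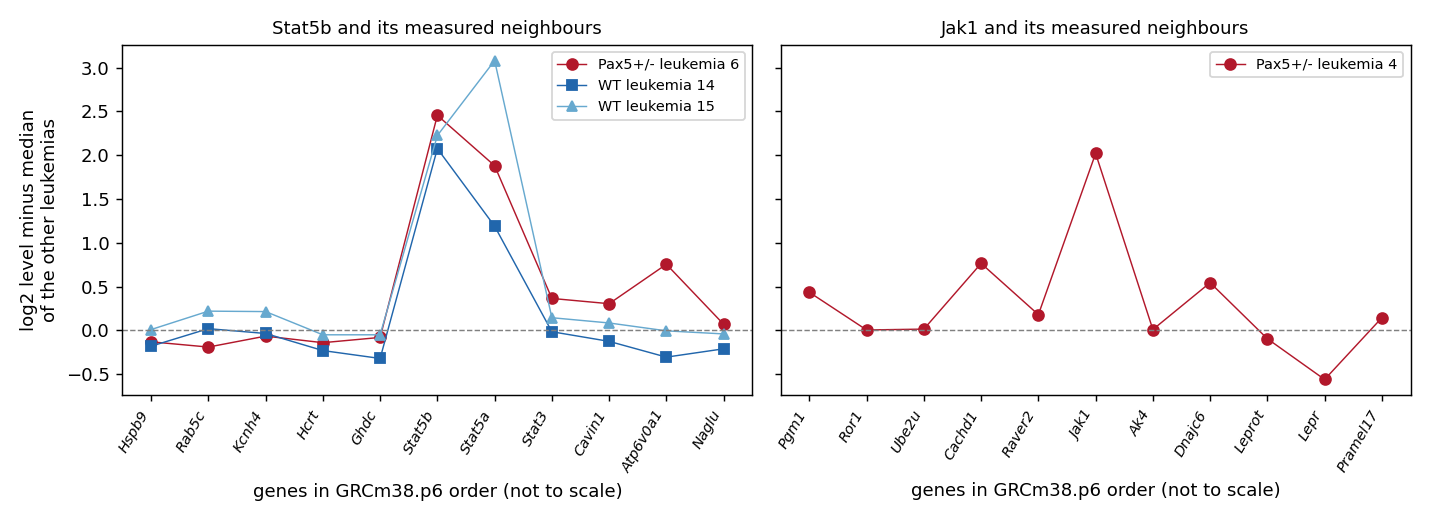
Log2 level minus the median of the leukemias without the rise (vertical axis) for genes in their order along the genome (horizontal axis, not to scale), around Stat5b and Stat5a (left: Pax5+/- leukemia 6, WT leukemias 14 and 15) and around Jak1 (right: Pax5+/- leukemia 4). Stat5b and Stat5a reach 1.19 to 3.08 and Jak1 reaches 2.02, while the genes beside them stay between -0.56 and 0.77. Some of the genes beside them lie near or below the array medians.

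Around Jak1 the picture in leukemia 4 was less sharp. Jak1 was 2.02 above the median of the other 12 leukemias, and 3 of its 10 measured neighbours, also taken by position, lay outside their range. These were Cachd1, at 6.39 against 5.55 to 5.72, Pgm1, at 8.59 against 7.78 to 8.43, and Raver2, at 5.42 against 5.11 to 5.31. Their rises of 0.77, 0.44 and 0.18 were smaller than that of Jak1, and the gene next to it on the other side, Ak4, differed by 0.01. The median of Ak4 in the other leukemias was 5.52, below the array medians of 6.06 to 6.2, where a rise may not show.

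Marker levels moved with some of these samples. Pax5+/- leukemia 6 had the highest neutrophil mean of all samples (10.7, with 14 of 14 markers above the array median), and the WT leukemias had 9.05, 9.54 and 9.96 in samples 14, 15 and 17, also with 14 of 14. WT leukemia 15 had the highest NK mean (8.76, 9 of 10 markers) and the lowest B cell precursor mean (9.08). Neutrophil means were also high in Pax5+/- leukemia 2 (10.2), WT leukemia 17 (9.96) and WT preleukemic 20 (10.4). Stat5b was 8.22, 8.37 and 8.69 in these samples, against 11.09, 10.71 and 10.86 in leukemias 6, 14 and 15. Pax5+/- leukemia 4, where Jak1 was high, had the lowest neutrophil mean of its group (6.0, with 4 of 14 markers) and the highest megakaryocyte mean (10.9, with 5 of 5). The part of other cells in the rises was not tested beyond these values.

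Across groups, Stat5b was the member nearest to a stage difference in Pax5+/- mice. Of the 10 leukemias, 7 lay above every preleukemic sample, which ran from 8.15 through 8.26 to 8.54. The mean was 8.88 ± 0.81 in Pax5+/- leukemias and 8.29 ± 0.13 in Pax5+/- preleukemic cells (SD, n = 10 and n = 7), a difference of 0.59 (SE 0.34). The exact two-sided permutation p was 0.0176, and 0.00376 to 0.0563 when each sample was left out, while the limma adjusted p was 0.125. Without leukemia 6 the difference was 0.35. Stat5a averaged 8.19 ± 0.60 in Pax5+/- leukemias and 7.96 ± 0.13 in Pax5+/- preleukemic cells, with 1 of 10 leukemias above all preleukemic samples (difference 0.23, SE 0.31, limma adjusted p = 0.52).

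In WT mice Stat5a rose in leukemia by 1.32 on the log2 scale, or 2.49-fold (SE 0.52, 95% interval 0.24 to 2.39, n = 3 and n = 3, limma adjusted p = 0.0498), with 2 of 3 leukemias above all WT preleukemic samples. When each of the 23 samples was left out in turn, this call held in only 2 cases, without Pax5+/- leukemia 6 or WT leukemia 17, and without WT leukemia 15 the difference was 0.47 (adjusted p = 0.401). Stat5b differed by 1.37, or 2.58-fold (SE 0.56, interval 0.22 to 2.52, limma adjusted p = 0.0568), and it passed without WT leukemia 17 or without Pax5+/- leukemia 6. The exact permutation p was 0.3 for Stat5a and 0.4 for Stat5b, where 3 samples against 3 cannot go below 0.1. By group mean the order of both genes was WT leukemic, Pax5+/- leukemic, WT preleukemic and Pax5+/- preleukemic. Neighbours in this order lay within the larger of their SDs except Stat5b in the preleukemic groups, at 8.29 ± 0.13 in Pax5+/- and 8.61 ± 0.12 in WT cells.

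Stat3, which answers IL-6 type cytokines more than IL-7, had the smallest SD of the 3 STAT genes in each of the 4 groups. In Pax5+/- leukemias this ranking rested on sample 6. Without it, Stat5a spanned 7.86 to 8.11 and Stat5b 8.22 to 8.99, against a wider 9.46 to 10.62 for Stat3. Stat3 ran from 9.46 through 9.94 to 10.62 in Pax5+/- leukemias and from 9.79 through 9.89 to 10.04 in Pax5+/- preleukemic cells. Its level lay above the preleukemic range in 3 leukemias and below it in 3. WT leukemias held 9.89, 10.05 and 9.80, against 10.01, 10.14 and 10.02 in WT preleukemic cells. The differences were 0.05 (SE 0.12, limma adjusted p = 0.727) in Pax5+/- mice and -0.14 (SE 0.19, limma adjusted p = 0.57) in WT mice, and the 4 group means lay between 9.90 and 10.06.

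Counted over the 5 measured genes, 0 passed in Pax5+/- leukemia against preleukemic cells by limma, where 64.6% of 15542 genes passed. At an unadjusted limma p of 0.05 the count was also 0, against 68% of all genes, and 1 gene, Stat5b, had an exact permutation p under that value, as 68.5% of all genes had. Of the 5, 0 had stage ranges that did not overlap, against 22.4% of all genes. In WT mice 1 of 5 passed, Stat5a, where 37.2% of all genes passed, and 0 of 5 had ranges that did not overlap, against 44.4% of all genes. The 95% interval of the Pax5+/- difference was -0.56 to 0.10 for Il7r and -0.19 to 0.29 for Stat3, but -0.10 to 1.29 for Stat5b, so changes of about 2-fold in Stat5b lie within its error.

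**Figure D3:**
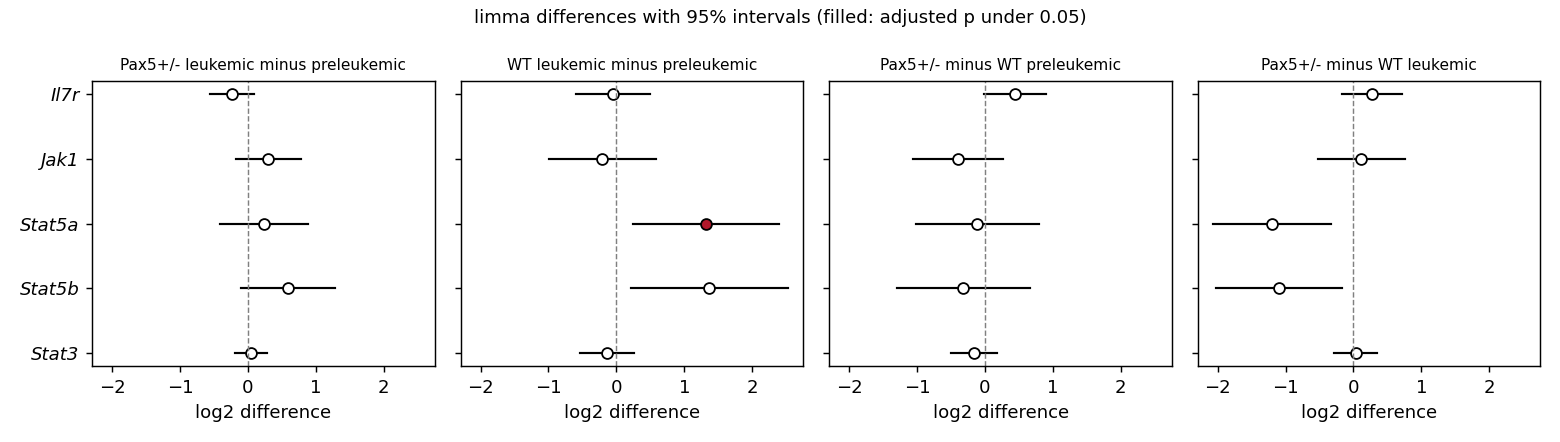
Log2 differences of the 5 measured genes (rows) with 95% intervals from limma (horizontal axes) in the 4 comparisons; the filled point passed an adjusted p of 0.05. Stat5a in WT mice, at 1.32, is the filled point, and the STAT5 intervals are the widest in the WT comparison.

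Between the genotypes before leukemia, 0 of 5 passed by limma at an adjusted p of 0.05 and 0 at an unadjusted one, where 0.624% and 8.97% of all genes passed. By exact permutation, which uses the spread of these groups alone, 4 of 5 had an unadjusted p under 0.05, against 11.3% of all genes; 20 such tests were made over the 5 genes and 4 comparisons. Besides Jak1, Il7r was higher in Pax5+/- by 0.44 (exact p = 0.0167, limma adjusted p = 0.583), and 6 of 7 Pax5+/- samples lay above every WT sample. Stat5b was lower in Pax5+/- by 0.32 on average (exact p = 0.0167, limma adjusted p = 0.949) and Stat3 by 0.16 (exact p = 0.0417, limma adjusted p = 0.888), each with 6 of 7 below every WT sample. Sex was not balanced here, as Xist exceeded Eif2s3y in 3 of 7 Pax5+/- and in 0 of 3 WT samples. With Xist as a covariate the limma difference shrank to -0.07 for Stat5b and was -0.22 for Stat3. Leaving out single samples gave exact p-values up to 0.0556 for Il7r and Stat5b and up to 0.139 for Stat3, each time without WT sample 19. NK and innate lymphoid markers moved with this comparison: their mean was 5.59 to 6.11 in 6 Pax5+/- samples and 6.91 in sample 12, against 6.43, 7.12 and 8.08 in the WT samples. Over the 10 markers the median difference was -1.23, with 0 of 10 passing by limma and 4 lower at an unadjusted p of 0.05, and their part in the values of the 4 genes was not tested. Stat5a, at 7.96 ± 0.13 in Pax5+/- and 8.07 ± 0.23 in WT preleukemic cells, had an exact p of 0.325.

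Between the genotypes in leukemia, 0 of 5 passed by limma, where 0.341% of all genes passed, and 0 had an exact permutation p under 0.05, against 4.64% of all genes. None had ranges that did not overlap, as 0.579% of all genes had. At an unadjusted limma p of 0.05 the count was 2, against 5.89% of all genes. This comparison turned on single WT leukemias: 53 of all genes passed, but 160 without sample 14, 0 without 15 and 5 without 17. Stat5a averaged 8.19 ± 0.60 in Pax5+/- and 9.39 ± 1.60 in WT leukemias (SD, n = 10 and n = 3), a difference of -1.20 (SE 0.42, limma adjusted p = 0.472, exact permutation p = 0.0699). Stat5b averaged 8.88 ± 0.81 and 9.98 ± 1.40 in the same groups, a difference of -1.10 (SE 0.45, limma adjusted p = 0.669, exact permutation p = 0.105). Without WT leukemia 15 the differences were -0.35 for Stat5a and -0.66 for Stat5b. Erythroid markers were lower in Pax5+/- leukemias for 3 of 5 by limma (median -1.04), and no marker of the other lists passed. Their mean was 6.25, 8.29 and 8.52 in WT leukemias 14, 15 and 17, against 5.89 to 6.38 in Pax5+/- leukemias. Xist exceeded Eif2s3y in 3 of 3 WT and 5 of 10 Pax5+/- leukemias. The part of other cells and of sex in the STAT5 values was not tested. The stage changes of the genotypes differed for 0 of 5 genes by limma, at an adjusted or an unadjusted p of 0.05, where 0.0965% and 7.19% of all genes passed. The value for Stat5a was -1.08 (SE 0.60, limma adjusted p = 0.762).

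Some of the genes that STAT5 switches on were high in leukemias other than those with high STAT5 RNA. Cish, an inhibitor induced by STAT5, was 7.13, 6.17, 6.62, 9.12, 6.87, 6.28, 6.03, 9.61, 8.67 and 8.05 in Pax5+/- leukemias 1 to 10, against 6.23 to 6.34 in the 7 Pax5+/- preleukemic samples. It was high in leukemias 4, 8, 9 and 10 and within the preleukemic range in leukemia 6, where Stat5b was highest. Socs2, a second such inhibitor, was 10.57, 8.90, 8.60, 11.88, 10.80, 8.81, 7.93, 12.00, 11.73 and 12.04 in the same leukemias, against 7.56 to 8.44 before leukemia. In WT leukemias 14, 15 and 17, Cish was 7.83, 8.88 and 6.57 and Socs2 was 12.14, 12.27 and 7.67, against at most 6.52 and 9.21 in WT preleukemic cells. The WT leukemias with high STAT5 RNA thus also held high Cish and Socs2, while Pax5+/- leukemia 6 held 6.28 and 8.81. Leukemia 4 combined the highest Jak1 with Cish of 9.12, whereas leukemias 8, 9 and 10 reached 8.05 to 9.61 with Jak1 of 10.22 to 10.41, at the low end of the group.

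Over the 10 Pax5+/- leukemias, Pearson's r between Cish and Socs2 was 0.89 (Spearman 0.87, and r 0.91 without samples 4 and 8). Between Stat5b and Cish it was -0.16 (Spearman 0.35), and 0.42 without samples 2 and 6. Between Jak1 and Cish it was 0.20 (Spearman -0.48), and -0.91 without samples 4 and 9, so both turned their sign. Between Stat5a and Stat5b it was 0.95 (Spearman 0.24), and 0.43 without samples 6 and 10, the farthest for Stat5a, or -0.07 without samples 2 and 6, the farthest for Stat5b. These describe 10 arrays that share a scale and a mixed cell make-up. By limma both inhibitors rose in Pax5+/- leukemia, Socs2 by 2.27 (SE 0.66, adjusted p = 0.00513) and Cish by 1.17 (SE 0.45, adjusted p = 0.0286); these genes were picked out after their values had been seen.

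**Figure D4:**
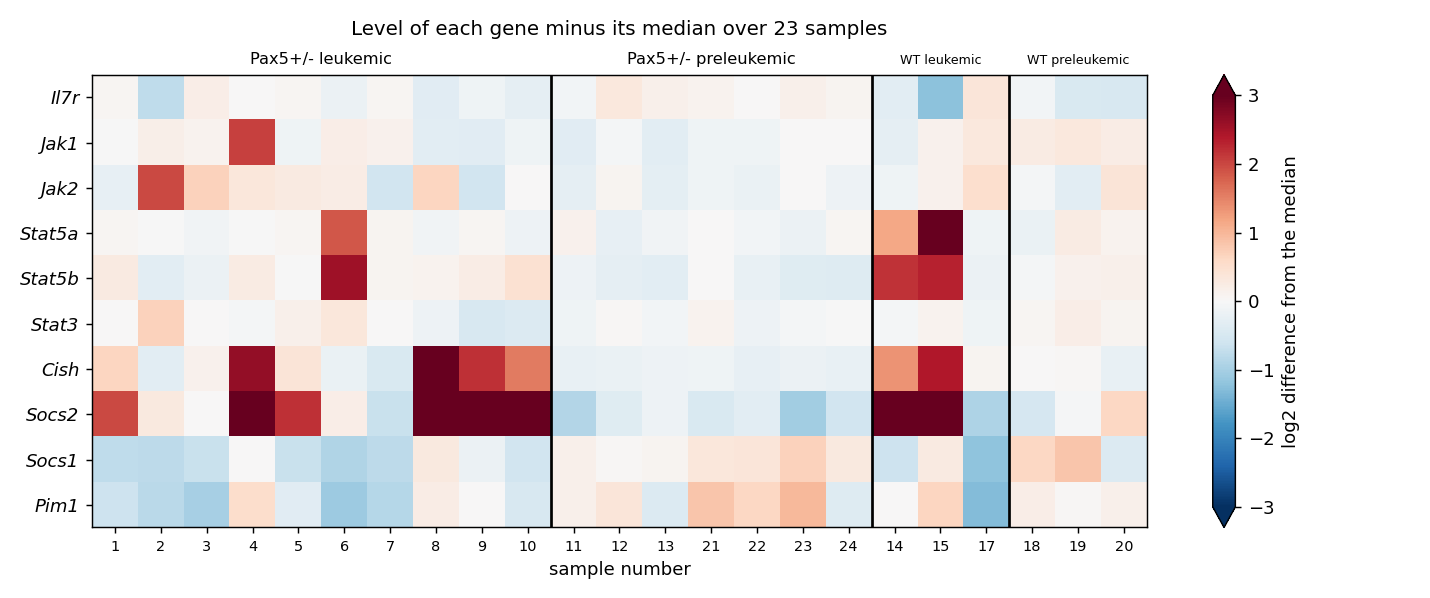
Log2 level of each gene (rows) minus its median over 23 samples (colour, capped at 3 either way) in each sample (columns, grouped by genotype and stage). Jak1 stands out in leukemia 4, Stat5a and Stat5b in leukemias 6, 14 and 15 and Jak2 in leukemia 2, while Cish and Socs2 are high in 4, 8, 9, 10, 14 and 15.

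The other pathway genes with a probe set of their own numbered 54, of which 49 were tested. Il7, Tslp, Il2, Il21 and Il6 failed the filter on low values. In Pax5+/- leukemia 11 of 49 rose and 22 fell, with a median difference of -0.09, where 28.0% of all genes rose, 36.5% fell and the median was -0.05. In WT leukemia 4 of 49 rose and 12 fell, with a median of -0.27, where 17.9% rose, 19.3% fell and the median was -0.06. Between the genotypes, 0 of 49 passed by limma before leukemia (6 at an unadjusted p of 0.05, where 8.97% of all genes passed) and 0 of 49 in leukemia (3 unadjusted, against 5.89%). In leukemia the count was 2 without WT leukemia 14. The stage changes of the genotypes differed for 0 of 49 (4 unadjusted, against 7.19%).

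Among ligands, 1 of 4 tested rose in Pax5+/- leukemia and 2 fell. Il15, whose receptor also uses the common gamma chain, fell by 2.19 (SE 0.20, limma adjusted p = 8.29e-09). It was at most 5.31 in Pax5+/- leukemias, near the filter line, where the 30th percentiles of the arrays ran from 5.11 to 5.31. The size of its fall is thus limited by the floor of the arrays. Flt3l, a growth factor of early progenitors, fell by 0.58, and Kitl, the ligand of Kit, rose by 0.81. In WT leukemia Kitl rose by 1.53 (adjusted p = 6.39e-05) and Il15 fell by 1.26 (adjusted p = 0.0053), 1 of 4 each way. Of 9 other receptor genes, 2 fell in Pax5+/- leukemia, Il2ra by 1.29 and Il15ra by 0.30, both chains of gamma chain receptors, and 0 of 9 passed by limma in WT leukemia, at an adjusted or an unadjusted p of 0.05. Il2ra ran from 8.68 through 11.33 to 12.20 in Pax5+/- leukemias, against 12.04 through 12.26 to 12.38 before leukemia.

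Of 5 other JAK and STAT genes, Stat4 rose in Pax5+/- leukemia by 1.97 (SE 0.27, limma adjusted p = 2.3e-06), while Stat6, the IL-4 factor, fell by 0.45 and Stat2, an interferon factor, by 0.60. In WT leukemia Stat6 fell by 0.63 and Tyk2, a kinase of interferon receptors, by 0.31. Jak2, at 10.36 in leukemia 2, exceeded the next Pax5+/- leukemia 2.46-fold, and 1.44% of all genes had such a gap. Leukemia 2 was also the highest by over 2-fold for 208 genes, against 3 to 58 in each of the others, and it held the highest T cell (7.68) and monocyte (9.02) marker means of its group. Of the 10 measured genes nearest to Jak2 in gene order, 5 lay outside the range of the other 12 leukemias there, in both directions. Cd274, 4 places from Jak2 and chosen after its value was seen, was 8.93, against 6.06 to 6.75. Pdcd1lg2 was also above, at 5.75 against 4.55 to 5.14, while Cdc37l1, Ak3 and Mir101b were below.

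Of 13 inhibitors, 5 rose and 7 fell in Pax5+/- leukemia. Cblb, a ubiquitin ligase, fell by 0.77 (limma adjusted p = 6.27e-07) and its relative Cbl rose by 0.71 (adjusted p = 1.69e-06). The phosphatase Ptpn6 rose by 0.58, and Pias1, a restraint on STAT factors, fell by 0.37. In WT leukemia 0 rose by limma (1 at an unadjusted p of 0.05) and 3 fell, Pias3 by 0.73, Cblb by 0.48 and Socs1, an inhibitor of JAK kinases, by 0.87 (limma adjusted p = 0.0498). Of 8 adaptors and effectors, 1 rose and 4 fell in Pax5+/- leukemia. Foxo1, a transcription factor of early B cells that Akt kinases restrain, fell by 2.08 (SE 0.18, limma adjusted p = 2.82e-09) and by 2.40 in WT leukemia (SE 0.29, adjusted p = 3.34e-06). Ptpn11, a phosphatase that carries growth factor signals, rose by 0.74 in Pax5+/- and 0.60 in WT leukemia, and Akt1 fell by 0.27 and 0.33.

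Of 10 STAT targets, 3 rose and 5 fell in Pax5+/- leukemia. Myc, which drives cell growth, rose by 3.62 (SE 0.34, limma adjusted p = 1.31e-08), Bcl2, a survival gene, by 2.69 and Ccnd2, a cyclin gene picked after its values were seen, by 2.54. The survival genes Bcl2l1 and Mcl1 fell by 2.26 (SE 0.14, adjusted p = 3.39e-11) and 0.94. Members of the list thus moved in opposite directions. In WT leukemia 2 rose and 4 fell. Myc rose there by 2.80 and Bcl2l1 and Mcl1 fell by 1.60 and 0.89, while Ccnd3 fell by 0.84. Pim1, a kinase gene that STAT5 induces, ran from 8.83 through 9.38 to 10.44 in Pax5+/- leukemias, against 9.52 through 10.29 to 10.89 before leukemia.

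**Figure D5:**
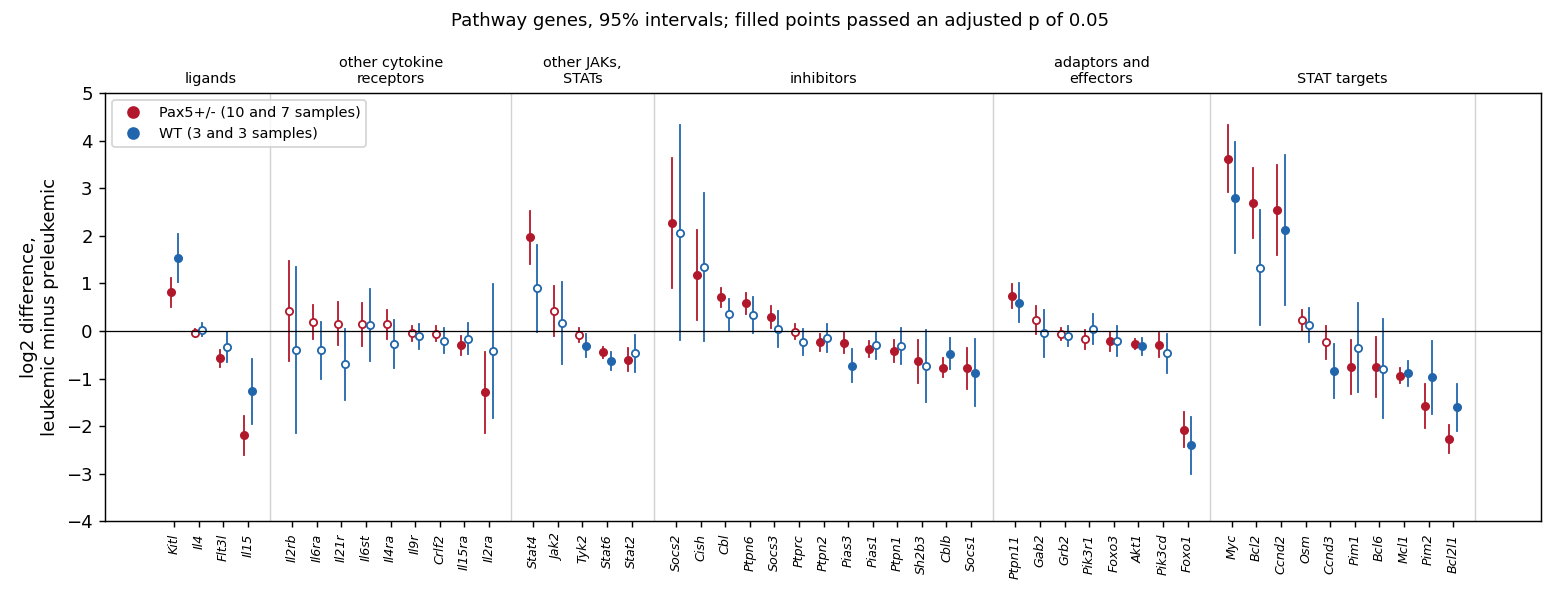
Log2 differences, leukemic minus preleukemic, with 95% limma intervals (vertical axis) for 49 pathway genes grouped by role (horizontal axis), in Pax5+/- (red) and WT mice (blue); filled points passed an adjusted p of 0.05. Myc, Bcl2 and Ccnd2 lie highest and Bcl2l1, Il15 and Foxo1 lowest in Pax5+/- mice.

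Genes most like each member were sought by Pearson's r of deviations from the group means over 23 arrays, without predicted genes. Il7r was most like Myb (0.90), a transcription factor of progenitors, Cdc37l1 (0.86) and Lrig2 (0.84), and within the 10 Pax5+/- leukemias without the 2 farthest samples these kept r of 0.70, 0.83 and 0.95. Stat3 was most like Fcgr1 (0.90), an Fc receptor gene of macrophages, C1qc (0.85), a complement gene of macrophages, and Esm1 (0.85). These kept r of 0.87, 0.56 and 0.89. Fcgr1 and C1qc are on the monocyte and macrophage marker list, and the part of such cells in Stat3 levels was not tested. Jak1 was most like Mras (0.87), Cachd1 (0.87), which is among its neighbours in gene order, and Sox17 (0.87). Without the 2 farthest samples these had r of 0.15, 0.32 and -0.08. Stat5a and Stat5b were most like each other (0.87), then Stfa2 and Asprv1 (0.81 each) for Stat5a and Tagln (0.80) and Acta2 (0.77) for Stat5b. Without the 2 farthest samples these last 4 had r of 0.36, -0.16, 0.22 and 0.46, so the likeness of Jak1 and of the STAT5 pair rested on the leukemias where they were high.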

How the data were processed

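Total RNA extracted with Trizol was fragmented, biotin-labelled and hybridised to 1-colour arrays, 1 per sample, per the labels' protocols. The authors deposited 1 log2 value per probe set and sample. The submitters' processing notes name Transcriptome Analysis Console, and normalization is not given in the sources used here. Array medians were 6.06 to 6.2 (log2); precision is limited by how many arrays there are. Samples were grouped by title. The series' design text counts 1 mouse per sample, and WT leukemia 16 was not analysed here.

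Of 28944 probe sets, 21789 carried 1 gene symbol, and the one of highest mean was kept per symbol. Genes were kept for testing where 3 or more arrays held a value over that array's 30th percentile (15542 genes). A single limma fit held all 4 groups (version 3.58.1, R 4.3.3, two-sided, intensity trend, Benjamini-Hochberg over all genes tested, threshold 0.05); single genes were also compared by exact two-sided permutation of samples, unadjusted. Fits were tested on simulated data with a single SD per gene shared by all groups. That test therefore did not cover spreads that differ between groups, as they did here. Figures used matplotlib 3.10.9.

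Members, pathway lists and markers were chosen with earlier results of these data known. Named genes were the members, up to 4 passing genes of smallest p per list and comparison, and the 3 genes most like each member; others are said to have been picked after their values were seen or are given as values. Neighbouring genes came from the order in GRCm38.p6. The alternatives tried were other filters, priors, array weights, normalizations, samples, covariates and blocks.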

Additional observations from a re-analysis of the deposited data

Results flagged for a closer look

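Within the Pax5+/- groups of 10 and 7 samples, a sample far from the nearest other was looked for with Dixon's test. Chance alone would pick about 1 in 20 groups; here 11.1% of all genes tested stood out in the leukemic and 5.51% in the preleukemic group. Among the measured members, 3 stood out in leukemias: Jak1 in sample 4 (12.61, next 10.74), and Stat5a (9.88, next 8.11) and Stat5b (11.09, next 8.99) in sample 6.

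Of the pathway genes, 8 stood out in Pax5+/- leukemias. High values were Flt3l in sample 1 (8.22), Il6ra (8.54), Jak2 (10.36) and Socs3 (7.81) in sample 2, and Ptpn11 in sample 3 (10.36). Low values were Sh2b3 in sample 5 (7.7), Myc in sample 3 (9.07) and Ccnd2 in sample 7 (7.61). A further 7 stood out in Pax5+/- preleukemic cells. High values were Flt3l (8.65) and Bcl6 (9.07) in sample 23, Il2rb in sample 12 (7.75), Il9r in sample 13 (6.22) and Tyk2 in sample 24 (9.08). Low values were Il6st in sample 21 (8.49) and Gab2 in sample 13 (8.13).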

How the results depend on the processing

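The only member that passed, Stat5a in WT mice, lay at the threshold. The count of members passing there was 0 with no filter, without trend, with robust priors, quantile normalization, median centring or only the groups of the contrast, 2 with array weights, and 0 to 2 when single samples were left out. With Xist as a covariate it stayed at 1, but Stat5b passed (1.93, limma adjusted p = 0.0251) and Stat5a did not (1.60, adjusted p = 0.0524). Another alternative left out samples 2, 15, 17 and 20, chosen after seeing the data because their markers of other cell types stood apart. Pax5+/- leukemia 6, with the highest neutrophil mean of all samples (10.7), was kept. Stat5b then passed in Pax5+/- mice (0.67, limma adjusted p = 0.0461) and Stat5a did not, which made the count of members 1 there. In WT mice leukemia 14 was the only leukemia left. The differences there, 2.14 for Stat5b and 1.145 for Stat5a, rest on that sample. With those samples left out, the pathway count was 32 in Pax5+/- mice. Leaving out single samples gave 27 to 33 in Pax5+/- and 9 to 19 in WT mice. The pathway count between leukemic genotypes, 0 otherwise, was 2 with array weights and without WT leukemia 14, and between preleukemic genotypes it was 1 with only those groups. The count of members with an exact permutation p under 0.05 between Pax5+/- leukemia and preleukemic cells was 1, and 0 to 2 when single samples were left out.

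Differences near 0 turned their sign. With array weights, Stat5a was 0.0097 between preleukemic genotypes, Stat3 -0.0072 between leukemic genotypes and Il7r 0.13 in the difference of stage changes. Stat3 in Pax5+/- mice was -0.017 with median centring and -0.027 without the 4 samples named above, where it was -0.02 between leukemic genotypes. Stat5a between preleukemic genotypes was 0.0093 with Xist as a covariate. Leaving out single samples turned Il7r in WT mice (-0.44 to 0.37), between leukemic genotypes (-0.15 to 0.65) and in the difference of stage changes (-0.60 to 0.20), Jak1 between leukemic genotypes (-0.092 to 0.25), and Stat3 in Pax5+/- mice (-0.027 to 0.10) and between leukemic genotypes (-0.043 to 0.10). The cause of these shifts was not tested. No paired analysis was possible because sample numbers in the titles run through the series and no number is shared between groups.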
